A study of Mus musculus with 18 samples.

Results

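The comparison described here set C3H/10T1/2 cells of the sg5 *Atrx* KO clone (clone G7) against *Atrx* WT cells, measured by polyA RNA-seq. It was chosen as 6 libraries, 3 of the clone and 3 of WT, of the 18 libraries of the series, and it covers all genes of the polyA table, of which 15480 of 24100 had enough counts to be tested. C3H/10T1/2 is a mouse mesenchymal progenitor cell line that can be directed to several connective tissue fates. The sg5 clone was grown from a single sorted cell after transient transfection of Cas9 and 1 guide RNA (sg5) against *Atrx*, and the WT line received the same Cas9 vector without a guide. A further clone made with another guide (sg6, clone B10) gave 3 polyA libraries of its own and served to show what differed in sg5 beyond the other clone. All lines were kept in the usual serum-containing growth medium without differentiation cues. Each genotype was a single line and its 3 libraries are replicates of that line, so the tests measure the spread among libraries of a line, and a difference between lines holds whatever else differs between them.

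ATRX is a SWI/SNF-type chromatin remodeller encoded on the X chromosome. With its partner DAXX it deposits a variant of histone H3 at telomeres, pericentromeric repeats and other silent chromatin, and its loss is known from soft tissue sarcomas, which are tumours of mesenchymal origin. Mesenchymal progenitors are recognised by their fibrillar collagens, matrix proteoglycans and growth factor receptors, and give rise to fat, bone, cartilage and smooth muscle. The question of the comparison was which of these programmes, and which gene families besides, differed between the KO clone and WT.

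The sg5 libraries were far deeper than the others. Total counts ran from 161036799 to 235346363 in sg5, from 27544833 to 80772108 in WT and from 58918732 to 71896907 in sg6, so levels are given as CPM, the counts of a gene scaled to the library's total after TMM correction for composition. Fold changes are on the log2 scale with their standard error, and a gene was called when its log2 fold change lay beyond 1 with an adjusted P (Padj) below 0.05 in edgeR's quasi-likelihood test. Against WT, sg5 had 493 higher genes (3.18% of those tested) and 1078 lower ones (6.96%). The lower genes also moved further. Their median log2 fold change was -1.95 against 1.6 for the higher genes, and 298 fell by more than 3 on the log2 scale while 71 rose by more than 3. The median over all genes tested was -0.0024. Depth and genotype cannot be told apart in these libraries, and with all counts thinned to the smallest library the calls were 421 higher and 874 lower. Of the lower genes, 204 lay under 0.1 CPM in every sg5 library. In 487 of the higher genes every sg5 library lay above every WT library, and in 1051 of the lower genes every sg5 library lay below. Over all genes tested, called or not, 21.2% had every sg5 library above and 20.3% every sg5 library below the WT libraries. In bulk RNA, a gene carried by fewer cells and a gene with less RNA per cell cannot be told apart.

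*Atrx* itself (gene ID 22589, chrX:105797615-105929372) was lower in the clone. Its level was 276, 297 and 328 CPM in the WT libraries and 138, 114 and 129 CPM in sg5, with no overlap (log2 fold change -1.24 ± 0.1, Padj = 5.04e-05). The remaining transcript was at a like level in sg6, at 122, 129 and 141 CPM, and the difference between the clones was -0.04 on the log2 scale (Padj = 0.902). A Cas9 cut need not remove the transcript, so the RNA level checks the label only in direction.

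Among the strongest gains were a set of genes that WT cells barely used. *Bves* and *Popdc3*, which encode Popeye-domain membrane proteins known from muscle, lie side by side on chromosome 10, 17284 bases apart, and both rose. *Bves* had 0 counts in all WT libraries and 14.2, 17.5 and 16.1 CPM in sg5, which is at least 219-fold higher when WT is set at the floor of 3 counts per library. *Popdc3* went from 0.349, 0.309 and 0.089 CPM to 6.14, 7.45 and 6.6 CPM (log2 fold change 4.75 ± 0.36, Padj = 3.3e-05). *Trim44*, a tripartite motif protein that acts in the ubiquitin system, was close to silent in WT, at 0.105, 0.252 and 0.2 CPM, and reached 63.6, 66.3 and 64.1 CPM in sg5 (log2 fold change 8.28 ± 0.16, Padj = 1.7e-08). The 3 sg5 libraries of *Trim44* lay within a narrow band, and sg6 had the same level, at 62, 63.8 and 63.9 CPM. *Lrp3*, a member of the LDL receptor family, had 2 counts over the WT libraries together and 6.65, 4.41 and 5.13 CPM in sg5, a pooled ratio of 388 with a 95% counting interval from 107 to 3210.

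Other genes with strong gains had varied roles. The C1q- and TNF-related protein gene *C1qtnf3* rose from 3.74, 1.95 and 2.47 CPM to 364, 117 and 91.9 CPM (log2 fold change 6.19 ± 0.72, Padj = 0.000344), and the matrix fibulin gene *Fbln7* from 0.803, 0.309 and 0.267 CPM to 22.6, 5.56 and 4.93 CPM (log2 fold change 4.73 ± 0.97, Padj = 0.00688). In both genes replicate 1 of sg5 stood well above the other replicates, while all sg5 libraries lay above all WT libraries. *Itga11*, a collagen-binding integrin chain, was at 0.454, 0.389 and 0.2 CPM in WT and at 18.2, 19.9 and 17.1 CPM in sg5 (log2 fold change 5.73 ± 0.28, Padj = 3.6e-06). The imprinted and retrotransposon-derived gene *Peg10* rose from 1.85, 1.19 and 0.867 CPM to 32.1, 76.7 and 64.3 CPM (log2 fold change 5.52 ± 0.55, Padj = 0.00015). *Cys1*, which encodes the ciliary membrane protein cystin, rose by 5.45 and *Mgll*, the lipase that breaks down monoacylglycerols, by 4.33 on the log2 scale, again with no overlap between the groups.

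Several of the strongest losses ended at or near 0 counts. *Xlr3c*, of the X-linked lymphocyte-regulated family, was at 16.7, 24.6 and 28.1 CPM in WT and at 0 counts in every sg5 library, which is at least 1400-fold lower. The Xlr3 copies are nearly identical, so how reads were shared among them is uncertain. *Nxf3*, an X-linked member of the RNA export factor family, went from 33.1, 57.3 and 72.3 CPM to 0, 0.00436 and 0.0308 CPM (log2 fold change -12.12 ± 0.74, Padj = 9.7e-06). The LIM-domain cofactor gene *Ldb2* fell from 26.3, 36.2 and 63.7 CPM to 0.00631, 0.0218 and 0.074 CPM (log2 fold change -10.26 ± 0.62, Padj = 9.26e-06). In each of these genes the highest sg5 library lay far under the lowest WT library.

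Further genes with strong losses had few counts left in sg5. *Syt1*, the calcium sensor of synaptic vesicles, was at 4.16, 6.06 and 4.85 CPM in WT and had 2 counts over the sg5 libraries together, a pooled ratio of 1620-fold lower with a 95% counting interval from 447 to 13400. *Sgip1*, an endocytic adaptor, also had 2 counts in sg5 against 6.39, 5.43 and 6.27 CPM in WT, which gave 1750-fold lower with an interval from 484 to 14500. The membrane protease gene *Bace2* fell by 9.19 and the X-linked gene *Luzp4* by 8.98 on the log2 scale. *Eya1*, a developmental phosphatase and transcriptional coactivator, fell from 13.3, 17.4 and 16.5 CPM to 0.0442, 0.0523 and 0.0678 CPM (log2 fold change -8.14 ± 0.25, Padj = 6.05e-07).

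The last of the strongest losses were *Efemp1* and *Igfbp5*. *Efemp1*, a fibulin of the elastic matrix, fell from 50.4, 84.9 and 109 CPM to 0.196, 0.201 and 0.204 CPM (log2 fold change -8.66 ± 0.44, Padj = 4.03e-06). *Igfbp5*, which binds insulin-like growth factors, fell from 26.7, 124 and 229 CPM to 0.152, 0.27 and 0.592 CPM (log2 fold change -8.56 ± 0.88, Padj = 0.000174). WT libraries varied widely for *Igfbp5*, and all of them remained above the sg5 libraries.

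**Figure D1:**
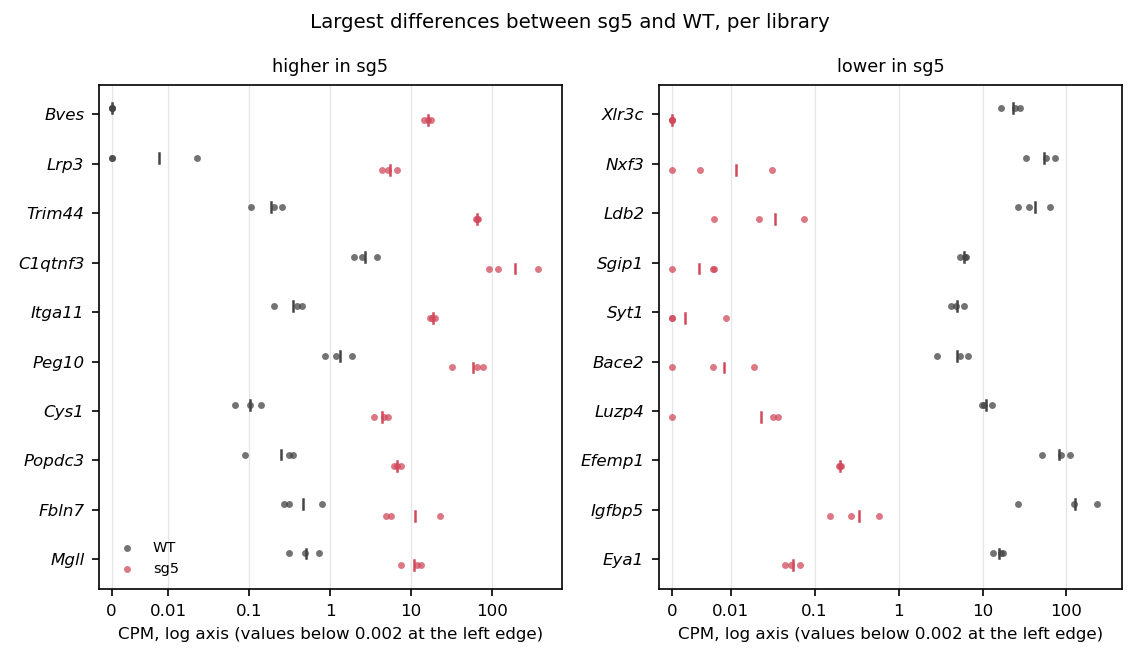
Level of the genes with the strongest differences between sg5 and WT in the polyA libraries of WT and sg5, on a log axis of CPM with values below 0.002 at the left edge. Points are libraries and upright marks are group means, and *Trim44* sat between 0.105 and 0.252 CPM in WT and between 63.6 and 66.3 CPM in sg5.

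The annotated promoters of 4 genes on which the comparison turned are shown. Counts were per gene, so which start site was used in each line was not tested. They were taken from RefSeq (GRCm38.p6, the same build as mm10) as windows of 300 bases read along the gene, with each CpG in capitals. *Trim44* was higher in both clones than in WT (gene ID 80985, chr2:102400851-102401150, minus strand), *Pcsk6* was higher in sg5 than in both other lines (gene ID 18553, chr7:65861886-65862185, plus strand), *Efemp1* was lower in sg5 than in both other lines (gene ID 216616, chr11:28852955-28853254, plus strand) and so was the imprinted gene *Plagl1* (gene ID 22634, chr10:13090582-13090881, plus strand).
Trim44: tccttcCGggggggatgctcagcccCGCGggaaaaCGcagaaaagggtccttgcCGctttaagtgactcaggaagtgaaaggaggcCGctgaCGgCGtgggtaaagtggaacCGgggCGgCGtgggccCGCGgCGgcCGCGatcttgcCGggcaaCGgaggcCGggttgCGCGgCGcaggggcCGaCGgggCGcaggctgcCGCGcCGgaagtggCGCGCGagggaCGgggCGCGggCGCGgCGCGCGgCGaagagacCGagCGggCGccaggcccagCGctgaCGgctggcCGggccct
Pcsk6: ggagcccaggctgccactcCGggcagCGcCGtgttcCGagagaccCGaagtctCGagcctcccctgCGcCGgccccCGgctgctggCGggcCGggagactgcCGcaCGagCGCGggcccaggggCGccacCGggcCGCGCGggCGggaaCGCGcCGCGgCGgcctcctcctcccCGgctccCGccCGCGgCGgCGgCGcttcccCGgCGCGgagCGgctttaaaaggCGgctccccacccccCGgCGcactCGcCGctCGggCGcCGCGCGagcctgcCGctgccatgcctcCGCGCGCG
Efemp1: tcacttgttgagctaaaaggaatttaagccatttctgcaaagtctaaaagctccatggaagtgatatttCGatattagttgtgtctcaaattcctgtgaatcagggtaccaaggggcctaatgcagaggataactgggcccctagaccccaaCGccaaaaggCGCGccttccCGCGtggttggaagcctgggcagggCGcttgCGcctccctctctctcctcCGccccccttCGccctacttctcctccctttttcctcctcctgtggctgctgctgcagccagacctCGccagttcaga
Plagl1: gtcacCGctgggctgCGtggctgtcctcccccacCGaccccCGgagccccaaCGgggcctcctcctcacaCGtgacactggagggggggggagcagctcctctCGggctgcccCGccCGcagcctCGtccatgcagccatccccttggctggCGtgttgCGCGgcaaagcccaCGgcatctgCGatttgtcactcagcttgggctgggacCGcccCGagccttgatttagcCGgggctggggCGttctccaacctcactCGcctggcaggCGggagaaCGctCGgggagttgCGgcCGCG
The *Trim44* window held 46 CpG and the *Pcsk6* window 52, more than 98.4% and 99.4% of all 32851 RefSeq windows, whose median was 7. *Plagl1* had 26 CpG, more than 83.1% of windows, and *Efemp1* had 11, more than 58.6%. The G-quadruplex motif, which is 4 runs of GGG or more parted by 1 to 7 bases and was sought on both strands, was found in the *Pcsk6* window alone of the 4 and in 18.6% of all windows. The letters TATAAA, sought on both strands, were in none of the 4 and in 13.6% of all.

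Matrix genes were called in both directions. Of 36 collagen chains tested, 7 rose and 5 fell, and the median of the list was 0.43. *Col8a2*, a short-chain network collagen, rose from 7.72, 6.1 and 4.87 CPM to 62.9, 52.7 and 43 CPM (log2 fold change 3.09 ± 0.28, Padj = 8.32e-05). The transmembrane collagens *Col23a1* and *Col17a1* fell, *Col23a1* from 10.3, 22.6 and 39.4 CPM to 1.86, 0.646 and 0.426 CPM (log2 fold change -4.63 ± 0.65, Padj = 0.000939) and *Col17a1* by 1.59 on the log2 scale. Among 14 small leucine-rich proteoglycans, which coat collagen fibrils, 4 rose and 2 fell (median 0.22). Osteomodulin (*Omd*) rose from 12.3, 16 and 11.2 CPM to 73.7, 70.2 and 56.1 CPM (log2 fold change 2.33 ± 0.15, Padj = 1.26e-05), and its neighbour asporin (*Aspn*) from 204, 304 and 440 CPM to 1040, 746 and 941 CPM (log2 fold change 1.52 ± 0.3, Padj = 0.00586). *Podn* and *Podnl1* fell by 1.27 and 1.74.

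Elastic fibre and matricellular proteins moved in both directions, with 7 higher and 8 lower of 47 and a median of 0.04. Thrombospondin (*Thbs1*), which activates latent TGF-beta, rose from 55.2, 31.4 and 41.4 CPM to 357, 400 and 205 CPM (log2 fold change 2.92 ± 0.52, Padj = 0.00339), and *Ccn2*, the connective tissue growth factor, from 54.5, 33.2 and 26.2 CPM to 254, 335 and 191 CPM (log2 fold change 2.78 ± 0.46, Padj = 0.00236). *Sparcl1*, a matricellular relative of osteonectin, fell from 36.4, 31.6 and 41.9 CPM to 0.486, 0.157 and 0.111 CPM (log2 fold change -7.21 ± 0.5, Padj = 1.93e-05). *Smoc2*, a calcium-binding matricellular protein, went from 111, 236 and 367 CPM to 18.4, 11.1 and 17.7 CPM (log2 fold change -3.92 ± 0.4, Padj = 0.000174). None of these 4 genes overlapped between the groups in the polyA libraries. In rRNA-depleted libraries of the same lines *Sparcl1* was also lower (log2 fold change -3.36, Padj = 0.0412). *Thbs1* at 3.16 (Padj = 0.0505), *Ccn2* at 1.81 (Padj = 0.12) and *Smoc2* at -2.39 (Padj = 0.0868) did not pass there. The WT and sg5 libraries of *Thbs1* and *Ccn2* overlapped in that RNA. Of 37 matrix proteases and inhibitors, 2 rose and 7 fell (median -0.22). Of 19 ADAMTS and ADAMTS-like genes, the latter without protease activity, 5 fell and 1 rose. The losses included the proteases *Adamts9* from 9.29, 9.97 and 10.9 CPM to 2.61, 2.16 and 2.11 CPM (log2 fold change -2.13 ± 0.15, Padj = 2.37e-05), *Adamts16* (-1.62) and *Adamts14* (-1.57) and the protease-like *Adamtsl1* (-2.69). The membrane-type protease gene *Mmp15* rose by 2.45. Laminins and other basement membrane genes gave 2 higher and 1 lower of 16.

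**Figure D2:**
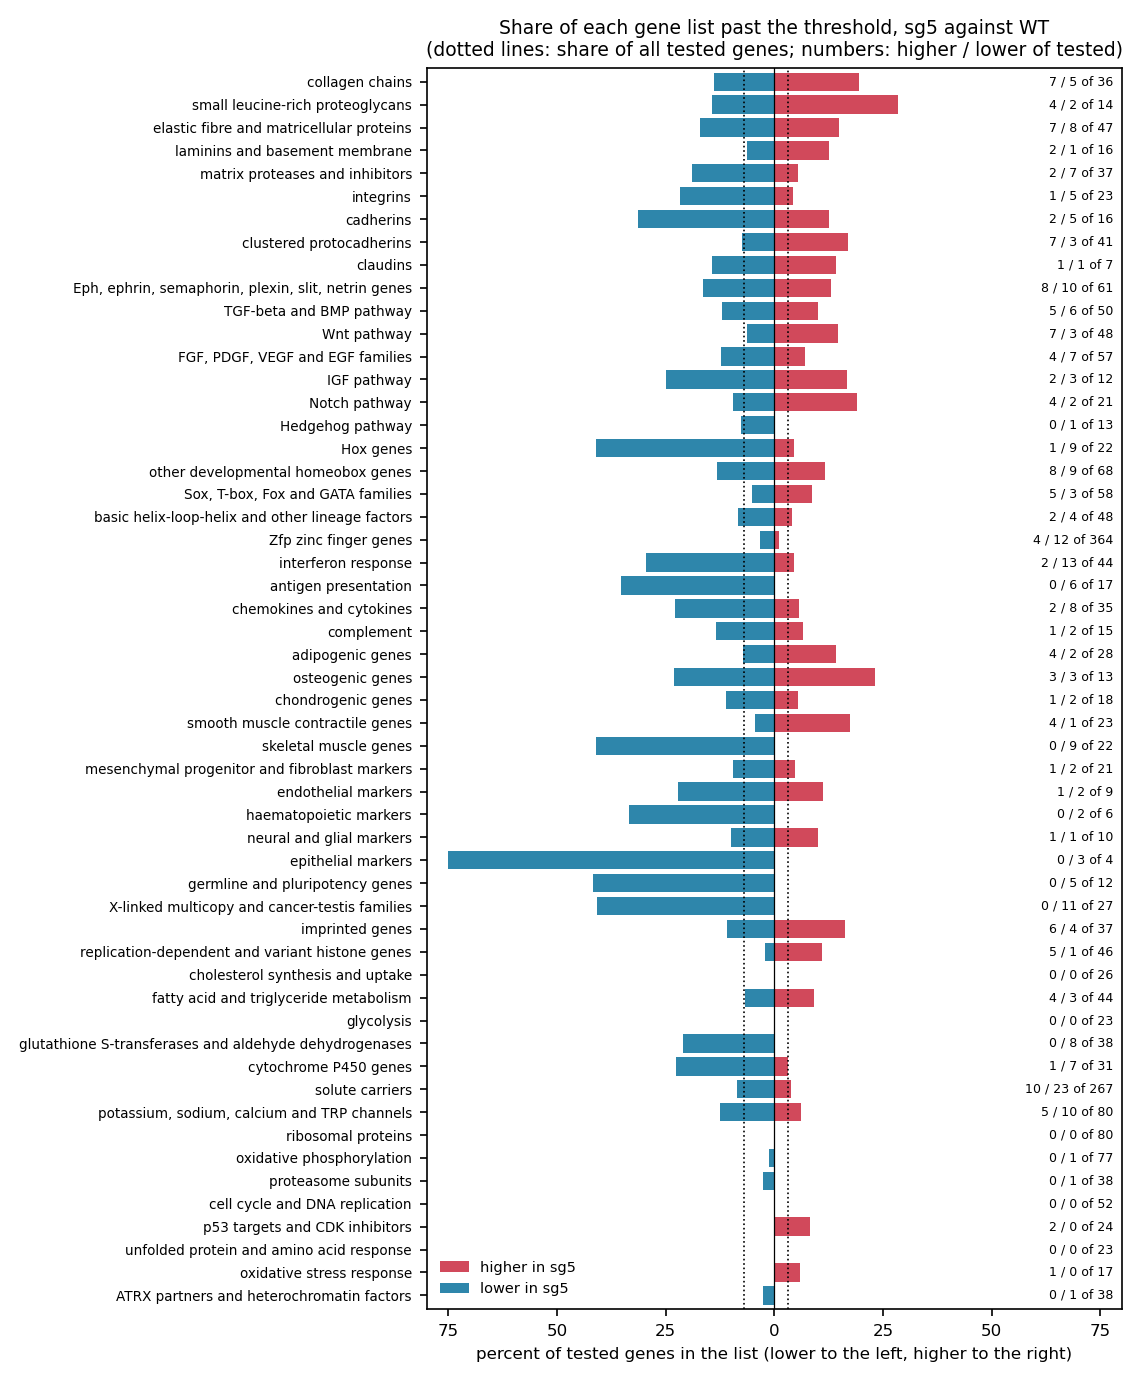
Share of the tested genes of each gene list that were higher or lower in sg5 than in WT, in percent, as bars from 0 (lower to the left, higher to the right) with the numbers at the right edge. Over all genes 3.18% were higher and 6.96% lower, and the ribosomal protein, glycolysis, cholesterol and cell cycle lists had none.

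Integrins and cadherins, which anchor cells to matrix and to each other, had more losses than gains by count, while their summed levels were higher in sg5. Over all genes, 3.18% were higher and 6.96% lower. Of 23 integrin chains, 1 rose and 5 fell (4.35% and 21.7%). The summed integrin level ran from 1630 to 1840 CPM in WT and from 2160 to 2390 CPM in sg5. The gain was *Itga11*, and the losses included *Itga8*, the chain that pairs in the nephronectin receptor, which went from 5.14, 11.2 and 16.4 CPM to 0.474, 0.353 and 0.352 CPM (log2 fold change -4.8 ± 0.4, Padj = 5.69e-05), *Itga2b* (-1.63) and the hemidesmosome chain *Itgb4* (-1.43). Of 16 cadherins, 2 rose and 5 fell (12.5% and 31.2%), and the summed level ran from 364 to 374 CPM in WT and from 576 to 666 CPM in sg5. *Cdh19* fell from 59.6, 63.2 and 51.5 CPM to 0.89, 0.475 and 0.574 CPM (log2 fold change -6.5 ± 0.35, Padj = 4.97e-06), *Cdh18* by 3.75 and E-cadherin (*Cdh1*) by 1.64, whereas *Cdh13*, which is anchored by a lipid, rose by 1.44. N-cadherin (*Cdh2*), the cadherin of mesenchymal cells, rose from 162, 148 and 127 CPM to 323, 356 and 333 CPM (log2 fold change 1.21 ± 0.1, Padj = 6.14e-05). When every chromosome's median was set to 0 its log2 fold change was 0.82, under the threshold. Of 41 clustered protocadherin isoforms, 7 rose and 3 fell. Isoforms of a cluster share constant exons, so their single values are uncertain, and with each chromosome's median set to 0 the gains were 3. Claudins of tight junctions gave 1 higher and 1 lower of 7. Guidance molecules gave 8 higher and 10 lower of 61, with a median of -0.04. The semaphorin *Sema3e* rose from 0.873, 0.801 and 0.6 CPM to 27.3, 8.37 and 7.42 CPM (log2 fold change 4.25 ± 0.61, Padj = 0.0011), while *Sema6d* (-3.91), the semaphorin receptor *Plxnc1* (-3.72), the Slit receptor *Robo1* (-2.31) and *Sema6a* (-2.22) fell.

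In the TGF-beta and BMP pathway 5 genes rose and 6 fell of 50 (median 0.25). Among the 10 secreted antagonists tested, 4 fell, among them the BMP antagonist gene *Chrdl1* at -2.14, and 1 rose, the activin antagonist *Fst* (log2 fold change 2.38 ± 0.42, Padj = 0.00339). The co-receptor endoglin (*Eng*), which also marks mesenchymal stromal cells, rose from 21.4, 17.1 and 20.9 CPM to 95.3, 87.1 and 84.8 CPM (log2 fold change 2.17 ± 0.11, Padj = 4.79e-06). Of the ligands 2 of 14 rose, among them the activin subunit gene *Inhbb* by 1.69. The TGF-beta-induced matrix gene *Tgfbi* fell from 111, 207 and 329 CPM to 39, 16.9 and 36.1 CPM (log2 fold change -2.81 ± 0.57, Padj = 0.0064). In rRNA-depleted libraries of the same lines *Tgfbi* at -1.74 (Padj = 0.264, with overlap) and *Inhbb* at 1.58 (Padj = 0.0739) did not pass. *Fst*, *Eng* and *Chrdl1* passed there in the same direction.

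In the Wnt pathway 7 genes rose and 3 fell of 48 (median 0.16). None of the 8 ligands tested was called in edgeR or DESeq2, and 1 had an unadjusted P under 0.05. Of the receptors, 4 of 17 rose and 1 fell, and the Frizzled receptor gene *Fzd9* went from 5.48, 5.32 and 7.03 CPM to 42.1, 26.9 and 36 CPM (log2 fold change 2.56 ± 0.19, Padj = 3.15e-05). Of the 10 secreted antagonists, 2 rose and 1 fell. *Frzb* rose from 4.96, 2.53 and 1.78 CPM to 82.5, 31 and 30.4 CPM (log2 fold change 4.0 ± 0.6, Padj = 0.00132) and *Sfrp2* by 2.71, while *Dkk2*, which blocks the Wnt co-receptors, fell by 2.7. *Rspo3*, an R-spondin that amplifies Wnt signalling, is described with the genes that set sg5 apart from sg6.

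Growth factor families showed 4 higher and 7 lower of 57 genes of the FGF, PDGF, VEGF and EGF families. These were 7.02% and 12.3%, where all genes gave 3.18% higher and 6.96% lower. *Fgf10*, a mesenchymal ligand for epithelial receptors, fell from 57.6, 74 and 110 CPM to 15, 13 and 16.3 CPM (log2 fold change -2.45 ± 0.43, Padj = 0.00311). Placental growth factor (*Pgf*) fell by 1.94, the EGF receptor gene *Egfr* by 1.71 and the feedback inhibitor *Spry1* by 2.42. *Spry4*, of the same list, rose by 1.98 (Padj = 0.0201). In rRNA-depleted libraries of the same lines *Spry1* at -1.92 (Padj = 0.125) and *Spry4* at -0.42 (Padj = 0.851) did not pass. *Pgf* and *Egfr* passed there in the same direction. Insulin-like growth factor (*Igf1*) rose from 88.9, 94.2 and 134 CPM to 724, 240 and 341 CPM (log2 fold change 2.04 ± 0.42, Padj = 0.00681), with replicate 1 of sg5 well above the others. In the IGF pathway 2 genes rose and 3 fell of 12. Notch gave 4 higher and 2 lower of 21, including a fall of the ligand *Jag2* by 2.05. Hedgehog gave 1 lower of 13 (7.69%, near the 6.96% of all genes), the co-receptor *Cdon* (-1.39). In the rRNA-depleted libraries *Cdon* did not pass (log2 fold change -0.11, Padj = 0.878), and its WT and sg5 libraries overlapped.

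Hox genes, which set positional identity along the body axis, had genes called lower in 2 of their 4 clusters. Of 22 tested, 9 fell and 1 rose, with a median of -0.69. The summed level of all Hox genes did not fall, and ran from 114 to 131 CPM in WT and from 121 to 146 CPM in sg5. The losses were 6 of the 7 genes tested in the HoxC cluster on chromosome 15 and 3 of the 5 in HoxB, with none of the 9 in HoxA. *Hoxc6* went from 3.77, 2.31 and 2.65 CPM to 1 count over the sg5 libraries together, which gave a pooled ratio of 1600-fold lower with a 95% counting interval from 286 to 63400. *Hoxc13* fell from 3.25, 1.72 and 1.29 CPM to 0.0126, 0.0436 and 0.0432 CPM (log2 fold change -5.85 ± 0.47, Padj = 4.15e-05). The other genes of the cluster were chosen after their values were seen. *Hoxc5* was at 0 counts in sg5, at least 17.5-fold lower, *Hoxc4* fell by 2.32 on the log2 scale, and *Hoxc8* had a log2 fold change of -0.89 (Padj = 0.0622). *Hoxc9* and *Hoxc10* each had 1 count over the sg5 libraries together, which gave 269-fold (46.7 to 10800) and 358-fold (62.8 to 14300) lower. The non-coding RNA *Hotair*, which lies within the cluster on the opposite strand, had 3 counts and was 111-fold lower (36.7 to 547). Whether counting used the strand is not stated, so reads of *Hotair* and of its overlapping Hoxc genes may be mixed. Against this *Hoxa4* of the HoxA cluster rose from 4.75, 4.42 and 3.51 CPM to 10.9, 10.1 and 9.86 CPM (log2 fold change 1.29 ± 0.13, Padj = 0.000164).

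**Figure D3:**
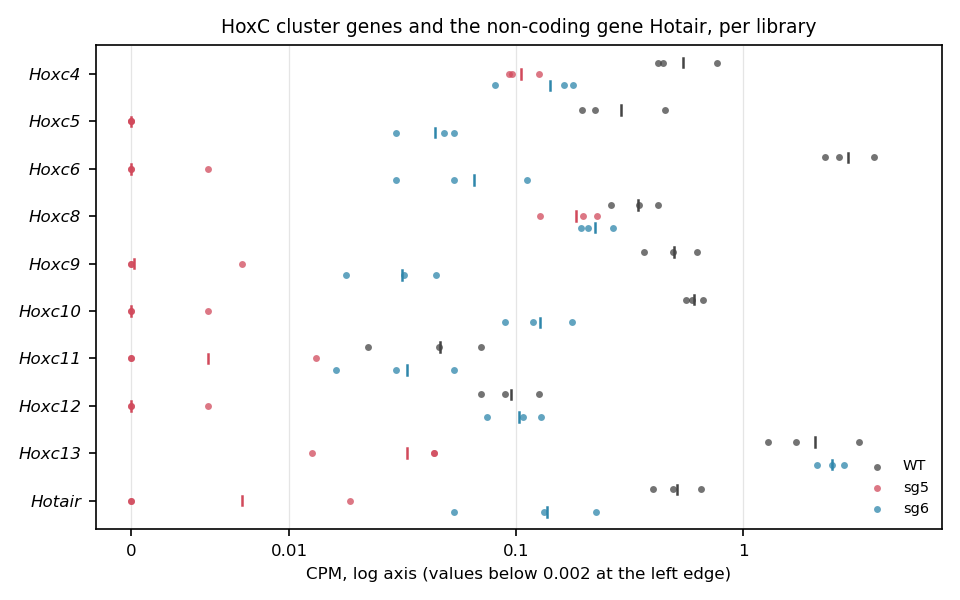
Level of the HoxC cluster genes and *Hotair* in each polyA library, on a log axis of CPM with values below 0.002 at the left edge, for WT, sg5 and sg6. Points are libraries, upright marks are group means, and *Hoxc13* lay between 1.29 and 3.25 CPM in WT and between 2.13 and 2.78 CPM in sg6, and at or under 0.0436 CPM in sg5.

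Homeobox factors outside the Hox clusters gave 8 higher and 9 lower of 68. *Meox2*, a mesodermal factor, fell from 10.7, 7.63 and 6.09 CPM to 0.0253, 0.0349 and 0.037 CPM (log2 fold change -7.9 ± 0.38, Padj = 3.55e-06). *Emx2*, known from forebrain and urogenital development, rose from 0.908, 0.778 and 0.667 CPM to 7.99, 8.76 and 8.3 CPM (log2 fold change 3.42 ± 0.15, Padj = 2.11e-06). *Six3*, an eye and forebrain factor, rose from 0.279, 0.252 and 0.222 CPM to 2.44, 2.03 and 2.2 CPM (log2 fold change 3.15 ± 0.34, Padj = 0.00021). The WT and sg5 libraries were fully separate in each. The list of Sox, T-box, Fox and GATA factors also held the Runt factor gene *Runx3*. Of its 58 genes 5 rose and 3 fell (8.62% and 5.17%, against 3.18% and 6.96% of all genes). *Foxd1* (1.99), *Foxc2* (1.5) and *Runx3* (1.45) were higher and *Tbx1* (-1.64) lower. Among 48 basic helix-loop-helix and other lineage factors 2 rose and 4 fell, including *Osr2* (-2.04) and *Klf5* (-1.87) on the lower side and *Zic2* (1.3) on the higher. Of 364 genes of the Zfp zinc finger family, many of which repress retroelements, 4 rose and 12 fell, or 4.4% together, where all genes gave 3.18% higher and 6.96% lower.

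The called immune genes were mostly lower in sg5. Of 44 interferon response genes, 13 were lower and 2 higher, with a median of -0.49. The guanylate-binding protein gene *Gbp2* went from 11.6, 16.8 and 29.9 CPM to 3.64, 1.79 and 2.42 CPM (log2 fold change -2.9 ± 0.43, Padj = 0.00128), the ubiquitin-like modifier gene *Isg15* fell by 2.31, *Gbp7* by 2.29 and the RNA sensor gene *Oas2* by 2.17. The Gbp genes are a family of similar copies clustered on chromosomes 3 and 5, so the share of reads of each is uncertain. *Ifih1*, a cytoplasmic sensor of double-stranded RNA, went the other way, from 0.559, 0.584 and 0.623 CPM to 4, 2.16 and 2.11 CPM (log2 fold change 2.22 ± 0.3, Padj = 0.00081). In rRNA-depleted libraries of the same lines *Ifih1* was at 1.01, 0.442 and 0.891 CPM in WT and 0.77, 0.836 and 0.232 CPM in sg5, with overlap (log2 fold change -0.37, Padj = 0.79). Of 17 antigen presentation genes, 6 fell and none rose (median -0.83), so 35.3% were lower against 6.96% of all genes. The summed level of the list was alike, from 1000 to 1190 CPM in WT and from 975 to 1190 CPM in sg5. The immunoproteasome subunit gene *Psmb9* fell by 2.09, the peptide transporter gene *Tap2* by 1.77 and the class I regulator gene *Nlrc5* by 1.18, and the class I chain gene *H2-Q4* went from 21, 23.9 and 23.8 CPM to 7.73, 6.67 and 8.44 CPM (log2 fold change -1.59 ± 0.15, Padj = 0.000107), although class I genes are similar enough to share reads. In the rRNA-depleted libraries *H2-Q4* was also lower (log2 fold change -2.61, Padj = 1.28e-05), whereas *Psmb9* at -0.68 (Padj = 0.689), *Tap2* at -0.39 (Padj = 0.851) and *Nlrc5* at -1.22 (Padj = 0.283) did not pass, and the WT and sg5 libraries of *Psmb9* and *Tap2* overlapped. Complement components and regulators gave 1 higher and 2 lower of 15. Of 35 chemokines and cytokines, 8 fell and 2 rose. The monocyte attractant *Ccl2* fell from 86.6, 40.1 and 34.1 CPM to 4.43, 4.69 and 3.56 CPM (log2 fold change -3.66 ± 0.34, Padj = 0.000105), and its neighbour in function *Ccl7* by 3.49. The neutrophil attractant *Cxcl5* fell by 2.87 and *Il18* by 1.54. For *Ccl2* and *Ccl7* the lowest WT library was well above the highest sg5 library.

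Markers of the labelled cell type were mostly not called. Of 21 mesenchymal and fibroblast markers, 1 rose, *Eng*, and 2 fell, *Thy1* (-1.73) and *Cd34* (-1.27), both near 1 CPM in WT and named after their values were seen, and the summed level of the list ran from 23500 to 25900 CPM in WT and from 26200 to 27000 CPM in sg5. Genes of the lineages to which these cells can be directed were called in both directions. Of 28 adipogenic genes 4 rose and 2 fell. Lipoprotein lipase (*Lpl*) rose from 10.7, 8.73 and 9.5 CPM to 52.9, 27.3 and 23.3 CPM (log2 fold change 1.84 ± 0.28, Padj = 0.0015), while *Ppargc1a*, a coactivator of brown fat and mitochondrial genes, fell from 96, 69.5 and 83.2 CPM to 20.1, 5.13 and 4.8 CPM (log2 fold change -3.05 ± 0.52, Padj = 0.0028). Of 13 osteogenic genes 3 rose and 3 fell, with the parathyroid hormone receptor gene *Pth1r* at 2.46, osteoprotegerin (*Tnfrsf11b*) at 1.48 and the phosphate-regulating protease gene *Phex* at -2.62. Of 18 chondrogenic genes 1 rose, the matrilin gene *Matn4* (log2 fold change 2.72 ± 0.18, Padj = 1.26e-05), and 2 fell.

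Most contractile genes of smooth muscle were not called, and those called were mostly higher. Of 23 smooth muscle contractile genes, 4 rose and 1 fell, with a median of 0.19. These were 17.4% and 4.35%, against 3.18% higher and 6.96% lower of all genes. The actins *Actg2* and *Acta2* rose, *Actg2* from 2.65, 2.17 and 2.05 CPM to 24.7, 33.3 and 23.6 CPM (log2 fold change 3.58 ± 0.19, Padj = 5.18e-06) and *Acta2* from 393, 352 and 368 CPM to 879, 1170 and 869 CPM (log2 fold change 1.39 ± 0.13, Padj = 0.000112). Transgelin (*Tagln*) rose by 1.79, and the myosin light chain kinase gene *Mylk* fell by 2.82. In rRNA-depleted libraries of the same lines *Tagln* did not pass (log2 fold change 1.73, Padj = 0.0673), and its WT and sg5 libraries overlapped. *Actg2*, *Acta2* and *Mylk* passed there in the same direction. Of 22 skeletal muscle genes none rose and 9 fell, with a median of -0.82, and 5 fell when all libraries were thinned to the depth of the smallest. They were weak in both lines, with a summed level of 33.6 to 36.2 CPM in WT and 23.3 to 25.1 CPM in sg5, and included the sarcomere genes *Tnnt3* (-1.82) and *Ttn* (-1.48). In the rRNA-depleted libraries *Tnnt3* at -0.61 (Padj = 0.465) and *Ttn* at -0.1 (Padj = 0.92) did not pass, and their WT and sg5 libraries overlapped.

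Markers of cell types that the cultures could hold besides were checked in the same way. Of 9 endothelial markers tested 1 rose and 2 fell, and the summed level was 32.2 to 53.2 CPM in WT and 43.3 to 48.9 CPM in sg5. The angiopoietin receptor gene *Tek* rose from 0.838, 1.22 and 0.823 CPM to 9.09, 13.8 and 11.7 CPM (log2 fold change 3.54 ± 0.23, Padj = 1.26e-05), and Cldn5 was at 0 in all 6 libraries. Of 6 haematopoietic markers 2 fell, including lysozyme (*Lyz2*, -2.12), with a summed level of 14.7 to 22.3 CPM in WT and 7.73 to 8.96 CPM in sg5, and the macrophage marker Adgre1 was at 0. Of 4 epithelial markers tested 3 fell, from a sum of 3.65 to 6.61 CPM in WT to 1.4 to 2.31 CPM in sg5, and Cldn3 and Cldn4 were at 0. Neural and glial markers summed to 141 to 161 CPM in WT and 208 to 233 CPM in sg5, with 1 of 10 higher and 1 lower, and the glial factors Olig1 and Olig2 were at 0. The part of these markers in the immune, adhesion and guidance results was not tested.

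Imprinted genes were called in both directions. Of 37 tested, which are expressed from 1 parental allele, 6 rose and 4 fell (median 0.07). *Peg3*, a paternally expressed zinc finger gene, went from 122, 121 and 104 CPM to 1.19, 0.209 and 0.271 CPM (log2 fold change -7.73 ± 0.61, Padj = 4.08e-05). The maternally expressed non-coding RNA *H19* fell from 11.2, 9.15 and 9.12 CPM to 0.84, 0.275 and 0.185 CPM (log2 fold change -4.51 ± 0.56, Padj = 0.000468). *Sgce*, the epsilon-sarcoglycan gene, lies 101 bases from *Peg10* and rose with it, from 4.68, 5.05 and 5.67 CPM to 44.6, 40.8 and 44.9 CPM (log2 fold change 3.08 ± 0.1, Padj = 6.05e-07). All WT and sg5 libraries were separate in these 3 genes.

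X-linked multicopy and cancer-testis families had losses and no gains. Of the 27 of 120 such genes that could be tested, 11 were lower and none higher, with a median of -1.09. Their copies are near-identical, so single members are uncertain. *Rhox5*, a reproductive homeobox gene on the X chromosome, fell from 11.4, 9 and 8.98 CPM to 0.259, 0.279 and 0.284 CPM (log2 fold change -5.15 ± 0.18, Padj = 6.05e-07). Of 12 germline and pluripotency genes tested 5 fell and none rose, and *Dppa2*, a pluripotency-associated factor, went from 2.65, 3.3 and 3.14 CPM to 0.133, 0.174 and 0.173 CPM (log2 fold change -4.23 ± 0.36, Padj = 6.3e-05). The testis genes *Tex13b* (-1.52), *Brdt* (-1.48) and *Piwil2* (-1.46) fell by less. Asz1, Dazl, Mael, Pou5f1, Rpl10l and Sox2 were at 0 counts in all 6 libraries.

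Detoxifying enzymes had more losses than gains by count. Of 38 glutathione S-transferases and aldehyde dehydrogenases, 8 fell and none rose (median -0.01), while the summed level of the list ran from 1450 to 1500 CPM in WT and from 1550 to 1650 CPM in sg5. *Gstt3* went from 26.8, 27.5 and 27.9 CPM to 5.04, 4.42 and 4.85 CPM (log2 fold change -2.52 ± 0.1, Padj = 9.14e-07), with a narrow spread in both groups. The folate enzyme gene *Aldh1l1* fell by 6.35, *Aldh1a7* by 4.41, *Mgst1* by 3.11 and *Gstm7* by 2.54. Of 31 cytochrome P450 genes 7 fell, with *Cyp3a13* from 1.96, 2.96 and 2.62 CPM to 0.101, 0.0523 and 0.0617 CPM (log2 fold change -5.15 ± 0.4, Padj = 3.53e-05) and *Cyp2d22* at -4.93, and 1 rose (median -0.26). The summed level of the P450 list was 652 to 739 CPM in WT and 887 to 912 CPM in sg5. Both families hold similar copies. In fatty acid and triglyceride metabolism 4 genes rose and 3 fell of 44. Beside *Mgll* and *Lpl* on the higher side, *Acacb*, the carboxylase that controls mitochondrial fatty acid entry, fell from 6.01, 6.8 and 9.25 CPM to 1.86, 1.21 and 1.32 CPM (log2 fold change -2.33 ± 0.27, Padj = 0.000309), and the lipase inhibitor *Angptl4* by 1.81.

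Transporters and channels were called in both directions. Of 267 solute carriers 10 rose and 23 fell (3.75% and 8.61%, median -0.02), shares close to the 3.18% and 6.96% of all genes. The myo-inositol transporter gene *Slc2a13* went from 12.9, 25.6 and 36.8 CPM to 0.859, 0.384 and 0.401 CPM (log2 fold change -5.53 ± 0.48, Padj = 6.82e-05) and the fatty acid transporter gene *Slc27a6* from 65.8, 77.6 and 82.2 CPM to 11.4, 11.5 and 12.2 CPM (log2 fold change -2.69 ± 0.22, Padj = 4.89e-05). The monocarboxylate carrier *Slc16a7* (-6.84), the amino acid carrier *Slc6a15* (-6.15), the peptide carrier *Slc15a2* (-4.75) and the sodium-proton exchanger *Slc9a9* (-2.6) were lower as well. Of 80 potassium, sodium, calcium and TRP channel genes 5 rose and 10 fell. The calcium channel subunit gene *Cacnb2* fell by 3.69 and the inward rectifier gene *Kcnj2* by 1.72, while *Kcnf1* (2.35) and the sodium channel gene *Scn2a* (2.28) rose.

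Lists of housekeeping and growth genes had few or no calls. None of 80 ribosomal proteins, 52 cell cycle and DNA replication genes, 26 cholesterol genes, 23 glycolysis genes or 23 genes of the unfolded protein response was called in edgeR. The medians of these lists were 0.04, 0.07, 0.25, 0.16 and 0.13. At an unadjusted P under 0.05 they held 12, 4, 1, 6 and 5 genes, and DESeq2 called 1 of them, in the cell cycle list. Of 77 oxidative phosphorylation genes 1 was lower, of 38 proteasome subunits 1 was lower (*Psmb9*, the interferon-induced subunit), of 24 p53 targets and CDK inhibitors 2 were higher and of 17 oxidative stress genes 1 was higher. Among 46 histone genes 5 rose and 1 fell, and 2 rose after thinning. In the lists described above as having no gain (antigen presentation, skeletal muscle, X-linked multicopy, germline, and glutathione S-transferases with aldehyde dehydrogenases), neither edgeR nor DESeq2 called a gain, and 1, 0, 2, 0 and 4 genes had an unadjusted P under 0.05 on the higher side. Of 38 ATRX partners and heterochromatin factors *Atrx* alone was called.

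The sg5 clone was next set directly against the sg6 clone. A gene counted as changed beyond sg6 when it passed the threshold in the same direction against WT and against sg6. The comparisons share the sg5 libraries, and those of each clone with WT share the WT libraries, so they are not independent of each other. By this rule 52 genes (0.336%) rose and 91 (0.588%) fell beyond sg6. Of the 52, the sg6 clone was not past the threshold against WT in 33, was itself higher in 9 and was lower in 10. Of the 91, the counts were 52 not past, 32 lower and 7 higher. The 52 became 79 and the 91 became 116 when the fit carried a block for replicate number, which the main fit left out. Without replicate 2 of sg5 the 91 became 60.

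The genes most raised beyond sg6 had varied roles. *Pcsk6*, a proprotein convertase that cleaves growth factors of the TGF-beta family, was at 3.14, 1.84 and 1 CPM in WT, 14.8, 23 and 14.9 CPM in sg5 and 1.92, 0.691 and 0.604 CPM in sg6 (log2 fold change 3.17 ± 0.5, Padj = 0.00177, and 4.02 ± 0.52, Padj = 0.00215 against sg6). *Itga11* was also higher in sg6 than in WT, at 3.15, 3.53 and 2.22 CPM, and sg5 stood above it by 2.63 on the log2 scale. *Scrn1*, the secernin gene, was at 9.29, 6.51 and 5.34 CPM in WT, 33.3, 31.5 and 32.6 CPM in sg5 and 2.26, 3.79 and 3.02 CPM in sg6 (log2 fold change 2.21 ± 0.22, Padj = 0.000159, and 3.43 ± 0.24, Padj = 5.28e-05 against sg6). In these 3 genes the sg5 libraries overlapped with neither group. The tubulin carboxypeptidase gene *Agbl2* rose by 2.6 against WT and by 2.89 against sg6, and *Cnrip1*, a partner of the cannabinoid receptor, by 1.73 and 2.53. The potassium channel accessory gene *Kcne2* rose by 2.04 and 1.77, from 4.26, 3 and 3.16 CPM in WT to 18.5, 10.5 and 13.4 CPM in sg5. For *Pcdhgb1*, a protocadherin isoform that shares its constant exons, the differences were 1.9 and 2.76. *Six3* rose by 3.15 and 2.98.

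Other genes in this set were less firm. *Hgf*, the ligand of the Met receptor and a mesenchymal signal to epithelia, was at 2.34, 3.23 and 4.74 CPM in WT, 14, 19.3 and 22.1 CPM in sg5 and 0.414, 1.03 and 1.1 CPM in sg6 (log2 fold change 2.42 ± 0.35, Padj = 0.00118, and 4.46 ± 0.39, Padj = 0.000221 against sg6). In rRNA-depleted libraries of the same lines it was at 6.52, 2.58 and 5.37 CPM in WT, 7, 2.95 and 3.75 CPM in sg5 and 0.215, 0.298 and 1.23 CPM in sg6, so the sg5 and WT values overlapped there (log2 fold change -0.07, Padj = 0.967). *Sfrp2* was at 58.9, 27.8 and 24.5 CPM in sg5 and 13.3, 8.82 and 8.81 CPM in sg6 (1.84 ± 0.36, Padj = 0.0198). Without replicate 2 of sg6 that difference was 1.74 (Padj = 0.0996), and without replicate 3 of sg6 it was 1.74 (Padj = 0.0846). *Col8a1*, the partner chain of *Col8a2*, was at 31.2, 30.3 and 18.7 CPM in WT, 115, 92.6 and 57.4 CPM in sg5 and 31.1, 15.2 and 9.45 CPM in sg6 (log2 fold change 1.72 ± 0.42, Padj = 0.0155, and 2.24 ± 0.43, Padj = 0.0178 against sg6). Its call was lost without replicate 1 of sg5, with 1.49 against WT (Padj = 0.0502) and 2.01 against sg6 (Padj = 0.0575). It was also lost against sg6 without replicate 2 of sg5 (2.21, Padj = 0.0539) or without replicate 2 of sg6 (2.12, Padj = 0.0971). In the rRNA-depleted libraries its difference from WT was 0.03 (Padj = 0.988).

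The genes most lowered beyond sg6 included signals, receptors and matrix components. *Rspo3* (chr10:29453106-29535867) was at 14.5, 13.7 and 18.9 CPM in WT, 15.4, 7.86 and 7.85 CPM in sg6 and 0.107, 0.0829 and 0.0432 CPM in sg5 (log2 fold change -7.63 ± 0.41, Padj = 5.18e-06, and -7.03 ± 0.41, Padj = 1.75e-05 against sg6). Its WT and sg6 libraries overlapped, and the sg5 libraries lay far below both. *Adgre5*, the adhesion receptor known as CD97, was at 7.13, 5.86 and 5.85 CPM, 0.852, 1.29 and 0.944 CPM and 13.4, 12.1 and 10.3 CPM in WT, sg5 and sg6 (-3.53 ± 0.2, Padj = 1.71e-05 against sg6). Against WT, *Adgre5* in sg6 was at 0.93 (Padj = 0.00463), under the fold threshold.

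Matrix genes made up a further group. *Efemp1* was at 8.43, 16.1 and 17.4 CPM in sg6, between the other lines, and sg5 lay below it by 6.12 on the log2 scale. *Col18a1*, a basement membrane collagen, was at 44.8, 47.1 and 61 CPM in WT, 3.59, 5.33 and 5.35 CPM in sg5 and 25, 41.9 and 41.1 CPM in sg6 (log2 fold change -3.42 ± 0.25, Padj = 2.52e-05, and -2.92 ± 0.24, Padj = 0.000164 against sg6). *Srpx2*, a secreted sushi-repeat protein, was at 47.4, 48 and 41.7 CPM, 2.96, 1.36 and 1.65 CPM and 15.3, 14 and 15.3 CPM in the same order (log2 fold change -4.53 ± 0.27, Padj = 9.17e-06, and -2.91 ± 0.26, Padj = 0.00021 against sg6). The sg5 libraries of these genes lay below all libraries of the other lines.

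Other genes were lowered in both clones and further in sg5. *Plagl1*, an imprinted zinc finger factor that restrains growth, was at 42.1, 35.4 and 49.1 CPM in WT, 7.57, 3.68 and 3.87 CPM in sg6 and 0.979, 0.493 and 0.407 CPM in sg5 (log2 fold change -6.08 ± 0.42, Padj = 1.95e-05, and -3.02 ± 0.38, Padj = 0.00195 against sg6). *Nxf3* was at 0.414, 1.12 and 1.6 CPM in sg6 and sg5 lay below it by 6.4. The actin regulator gene *Phactr2* was lower by 4.34 than in WT and by 2.67 than in sg6, and *Akr1c12*, an aldo-keto reductase with near-identical paralogues, by 6.88 and 2.66. Among the lists, 4 Hox genes, all of the HoxC cluster (*Hoxc5*, *Hoxc6*, *Hoxc10* and *Hoxc13*), were lower than in both. *Hoxc6* was nearly lost in sg6 as well, at 0.0296, 0.112 and 0.0533 CPM, or 2 to 7 counts per library (-5.45 against WT). Its 1 count over the sg5 libraries gave a pooled ratio of 34.3-fold lower than sg6, with a counting interval from 5.08 to 1470. *Hoxc13* was at 2.78, 2.46 and 2.13 CPM in sg6, where it did not differ past the threshold from WT (0.27, Padj = 0.601). The detoxifying enzymes *Mgst1*, *Aldh1a1*, *Cyp3a13* and *Cyp2b13* were lower than in both, and so were the potassium channel gene *Kcnd1* (-2.71 and -2.91), *Slc2a13* (-2.26 against sg6) and *Acacb* (-1.3 against sg6). *Aldh1a1* and *Cyp2b13* were named after their values were seen.

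**Figure D4:**
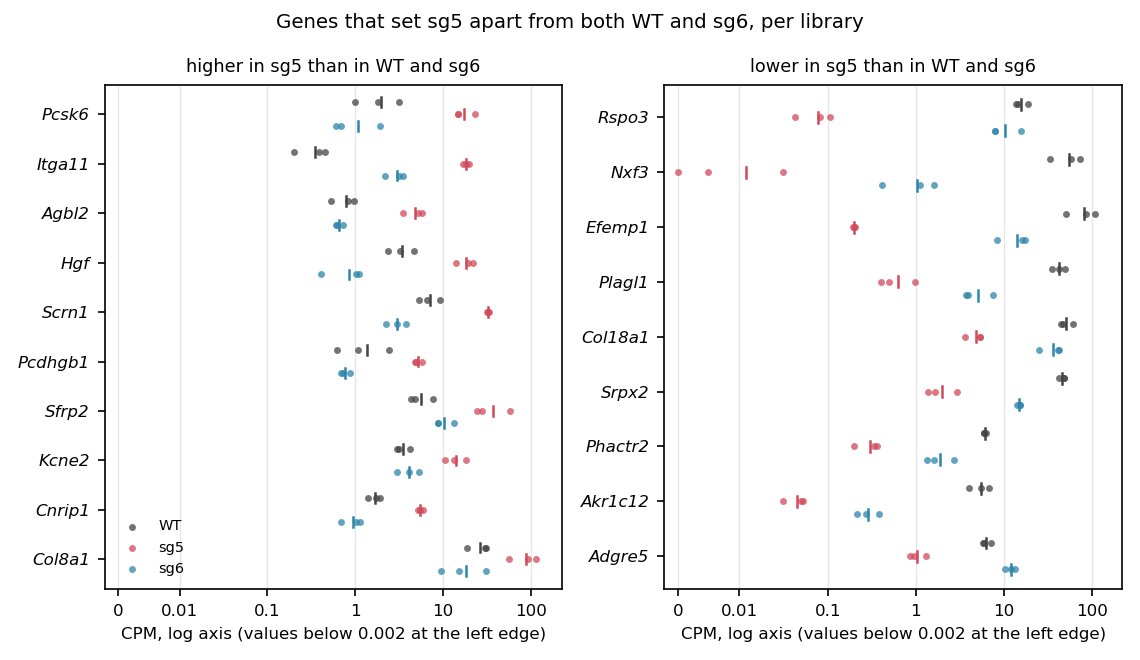
Level in each polyA library, on a log axis of CPM with values below 0.002 at the left edge, of the genes most raised or lowered in sg5 beyond sg6, with libraries as points and group means as upright marks. *Rspo3* lay between 7.85 and 18.9 CPM in WT and sg6 and at or under 0.107 CPM in sg5, and *Scrn1* between 31.5 and 33.3 CPM in sg5 and under 10 CPM elsewhere.

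In 17 genes the clones moved in opposite directions from WT and past the threshold on both sides. Among them were *Cntnap5b*, *Epha4*, *Fsd1*, *Hgf*, *Ifih1*, *Klhl29*, *Krba1*, *Maob*, *Ndn*, *Pdlim1*, *Pianp*, *Ptgis*, *Scamp5*, *Scrn1*, *Thy1* and *Zic5*. The members described next, other than *Ifih1*, were chosen after their values were seen. *Thy1* (CD90), a surface marker of mesenchymal stromal cells, was at 0.803, 1.1 and 1.09 CPM in WT, 0.246, 0.305 and 0.37 CPM in sg5 and 154, 128 and 119 CPM in sg6, so it was lower in sg5 by 1.73 than in WT and by 8.76 than in sg6. The imprinted gene *Ndn* was at 9.92, 10.2 and 14.1 CPM in WT, 34.7, 26.5 and 28.3 CPM in sg5 and 3.36, 3.44 and 3.14 CPM in sg6. The sensor gene *Ifih1* was at 0.178, 0.209 and 0.302 CPM in sg6, and sg5 stood above it by 3.59. Of the interferon list, *Ifih1* and the virus-tethering gene *Bst2* were higher in sg5 than in both other lines, and *Bst2* was at 5.9, 6.33 and 9.34 CPM in WT, 16.3, 16.1 and 16.1 CPM in sg5 and 6.18, 8.13 and 8.08 CPM in sg6. The reverse pattern, a smaller change than in sg6, was also seen. There were 26 genes higher than WT and lower than sg6, such as *Mgll* at 40.3, 37.3 and 45.3 CPM in sg6, and 53 lower than WT and higher than sg6, such as *Adamts9* at 0.636, 0.787 and 0.817 CPM.

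Some of the changed genes were neighbours on their chromosome. Of 456 higher protein-coding genes with a tested neighbour, 78 (17.1%) lay beside a gene that was also higher, and 6.07% of all 13944 such genes lay beside a higher gene. Of 983 lower genes, 304 (30.9%) lay beside a gene that was also lower, and 12.7% of all did. Multicopy families are included in these shares, whose members can share reads. Neighbours that rose together were *Popdc3* and *Bves*, *Sgce* and *Peg10*, *Aspn* and *Omd*, and *Trim44* with *Fjx1* and *Pamr1*, which lie 48465 and 98146 bases apart on chromosome 2. Neighbours that fell together were several Gbp genes of chromosomes 3 and 5, *Dppa4* and *Dppa2*, and the genes of the HoxC cluster. *Fjx1*, *Pamr1* and *Dppa4* were named after their values were seen.

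Whole chromosomes also stood apart by small amounts. The median log2 difference between sg5 and WT was 0.40 over the genes of chromosome 18, 0.33 on chromosome 12 and 0.27 on chromosome 8, and -0.26 on chromosome 11 and -0.16 on chromosome 15. The 3 sg5 libraries gave like values on each. Between sg5 and sg6 the medians of these 5 chromosomes were nearer 0, from -0.12 to 0.03, and the widest was on chromosome 13 at -0.32, against -0.06 between sg5 and WT. The share of lower genes was 12.1% on the X chromosome, 10.2% on chromosome 15 and 9.56% on chromosome 10, against 3.57% on chromosome 8. On chromosome 10, 7 of the 11 genes lowered beyond sg6 lay among the 197 tested genes of the first 50 Mb and 4 among the other 577, a window chosen after the values were seen.

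**Figure D5:**
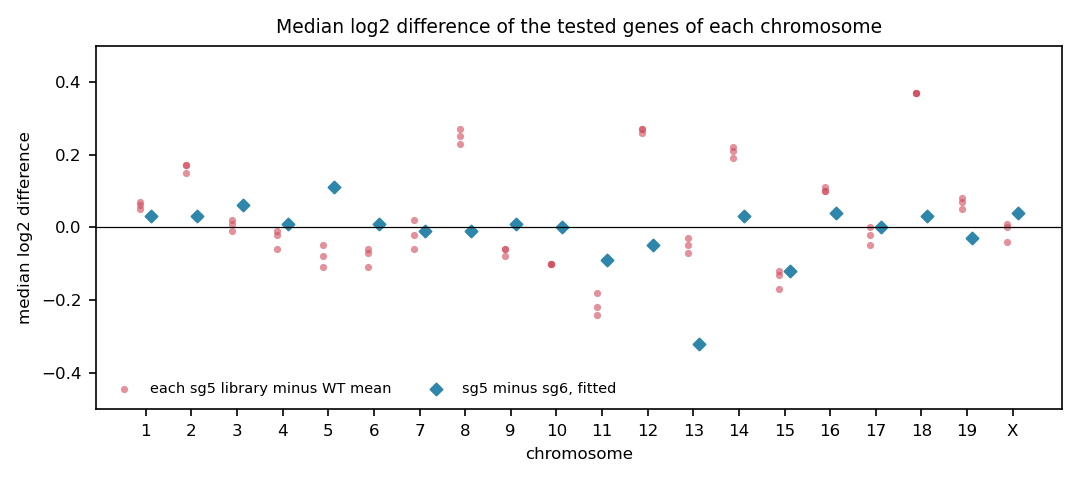
Median log2 difference over the tested genes of each chromosome, as 1 point for each sg5 library against the WT mean and as a diamond for the fitted difference of sg5 from sg6. On chromosome 18 each sg5 library lay at 0.37, on chromosome 11 they lay between -0.24 and -0.18, and the diamond farthest from 0 was on chromosome 13 at -0.32.

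The same clones were also measured in rRNA-depleted libraries, 3 for each line, with 20135336 to 33187136 counts, in which sg5 had 405 higher (3.04%) and 573 lower (4.31%) genes against WT. Of the 493 genes higher in polyA libraries 404 could be tested there, and 222 passed in the same direction and 1 in the opposite one. Of the 1078 lower genes 716 could be tested, and 405 passed in the same direction and none in the opposite one in edgeR, with 1 in the opposite one in DESeq2. The medians of their log2 fold changes were 1.66 and -2.08. Of the genes that set sg5 apart from sg6, 15 of 40 higher and 26 of 72 lower passed in both contrasts, and 38 and 69 had the same sign against WT. Of the 203 genes named by rule, 195 could be tested there and 133 passed in the same direction. The sign differed in *Hgf*, *Ifih1*, *Pcdhga7*, *Pcdhga9*, *Spry4*, *Zfp850* and *H3c14*, and *Igfbp7* had a log2 fold change of 0.0. *Efemp1* had 14.9, 19.4 and 23.1 CPM in WT, 4.05, 6.74 and 4.43 CPM in sg6 and 0 counts in sg5. *Rspo3* was at 27.3, 8.15 and 13.1 CPM in WT, 5.77, 5.07 and 3.55 CPM in sg6 and 0.0385, 0.167 and 0.271 CPM in sg5. In both genes the sg5 libraries lay below every library of the other lines, as they did in polyA RNA.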

How the data were processed

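RNA of C3H/10T1/2 cells was sequenced in 18 libraries, 9 polyA-selected and 9 rRNA-depleted, with 3 each for WT, sg5 and sg6. Groups and replicate numbers came from the labels. For the polyA libraries the authors quantified reads on mm10 genes with Salmon (0.8.2 in the submitters' processing notes) and deposited expected counts per gene, identified by NCBI gene ID and not normalized. Reads of rRNA-depleted RNA were aligned by the authors with STAR (2.27.10a in the same notes), and they deposited the raw read count of each gene and repeat locus, of which the gene rows are described. The strand setting is not given in the sources used here. Of 24100 gene IDs, 24045 matched a RefSeq symbol (GRCm38.p6) and 55 did not.

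Expected counts were rounded to whole numbers. Genes with low counts were removed by filterByExpr (minimum count 10, minimum total 15), libraries were scaled by TMM, and edgeR 4.0.16 in R 4.3.3 fitted the quasi-likelihood model to all 9 polyA libraries with 3 groups and no further term. A call needed an absolute log2 fold change over 1 and a P below 0.05 after Benjamini-Hochberg adjustment over all genes tested. DESeq2 1.42.0 served as an alternative, as did other size factors, no filter, sg5 and WT alone, thinning of counts to the depth of the shallowest library, centring of fold changes by chromosome, the replicate number as a block, and leaving out each library. On simulated counts of 15480 genes for the sg5 comparison with WT, edgeR recovered 89 of 100 changes of 4-fold and 99 of 100 of 8-fold, with 2 false calls. Smaller changes were not simulated, so recovery of calls under 4-fold was not tested. In the data, 185 of the 493 higher and 524 of the 1078 lower genes differed by more than 4-fold.

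Deviations of same-numbered libraries from their group means correlated at 0.0257, 0.158 and 0.264 between sg5 and WT, so the numbers were not taken to pair them. Between sg5 and sg6 they correlated at 0.336, 0.277 and 0.373, so there the numbers were taken to pair. The main fit carried no term for replicate number, so its values against sg6 leave this pairing out. With the block, 79 genes were raised and 116 lowered beyond sg6. No pair of libraries held identical values. Depth makes a gene at 0 counts mean fewer than 3 counts per library, and floors and intervals (exact, 95%) cover counting error only. Chromosome medians per library used log2(CPM + 0.5).

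The 54 gene lists, and the choice of this comparison, were made with earlier results of these data known. Named genes were *Atrx*, the 10 called genes per direction with the largest fold change against WT, the 10 per direction with the largest change beyond sg6 (both with a mean of at least 1 log2 CPM, no overlap between the groups and no Gm or Rik name), up to 6 called members of each list with a mean of at least 0 log2 CPM, and defining markers of other cell types at 0. A few genes that meet this rule are not reported here. Genes named outside it are said to be so or are listed as members of a counted set. RefSeq held a promoter window for 26 of the 36 reported genes with the largest changes. Figures were drawn with matplotlib 3.10.9.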

Additional observations from a re-analysis of the deposited data

Results flagged for a closer look

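Under the same contrast with WT, the effect of sg5 differed from that of sg6 in 40 of the 203 genes named by rule. This was by the edgeR test of sg5 against sg6, with an adjusted P below 0.05 and a log2 difference beyond 1. The genes described as raised or lowered beyond sg6 were chosen by passing this same test. Their place among the 40 was fixed by that choice and is no separate finding. Over all 15480 genes tested, the same test placed sg5 above sg6 in 211 and below it in 193. All values that follow are log2 fold changes of sg5 minus sg6, and both clones share the WT libraries. The sg5 clone stood above sg6 among the genes described as raised beyond it at *Pcsk6* 4.02, *Hgf* 4.46, *Scrn1* 3.43, *Agbl2* 2.89, *Pcdhgb1* 2.76, *Itga11* 2.63, *Cnrip1* 2.53, *Col8a1* 2.24, *Sfrp2* 1.84 and *Kcne2* 1.77. It lay below sg6 among the genes described as lowered beyond it at *Rspo3* -7.03, *Nxf3* -6.40, *Efemp1* -6.12, *Adgre5* -3.53, *Plagl1* -3.02, *Col18a1* -2.92, *Srpx2* -2.91, *Phactr2* -2.67 and *Akr1c12* -2.66. 

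Of the other named genes that rose against WT, *Bves* 1.66, *Col8a2* 1.70, *Six3* 2.98 and *Ifih1* 3.59 were higher than in sg6, and *Mgll* -1.92 and *Cd59a* -1.14 were lower than in sg6. *Cd59a*, a complement regulator, lost its call against WT when 1 library was left out in 2 of 9 fits. Of the list members that fell against WT, the matrix and adhesion genes *Adamts9* 1.62, *Cdh1* 1.59 and *Cdh26* 1.74, the guidance genes *Robo1* 2.37 and *Sema6a* 1.31, and *Tbx1* 1.29, *Zfp467* 2.15 and *Mylk* 1.29 fell less than in sg6. *Cdh26* lost its call against WT in 3 of 9 fits without 1 library. The HoxC genes *Hoxc6* -4.43 and *Hoxc13* -6.12, the enzymes *Acacb* -1.30, *Mgst1* -1.46 and *Cyp3a13* -3.72, and the transporter and channel genes *Slc2a13* -2.26 and *Kcnd1* -2.91 lay below sg6. The value of *Hoxc6* rested on 1 count over the sg5 libraries and on 2 to 7 counts per sg6 library. With 3 libraries a group, no single library was tested as an outlier.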

How the results depend on the processing

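Directions held for every named gene and alternative run. The 493 higher and 1078 lower genes became 541 and 1260 with DESeq2, 484 and 1086 with median-of-ratios size factors, 526 and 1255 without the filter, 485 and 1114 with sg5 and WT alone, 421 and 874 with counts thinned to the smallest library, and 449 and 1062 centred on chromosome medians. Leaving out 1 library gave 370 to 561 higher and 933 to 1260 lower genes. The 52 genes raised beyond sg6 ranged from 37 to 59 and the 91 lowered beyond it from 60 to 92 without 1 library, the 60 being without replicate 2 of sg5, where 59 genes were shared with the 91. *Atrx* ranged from -1.31 to -1.17.

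A fit with the replicate block gave 539 higher and 1111 lower than WT, 79 raised beyond sg6, which included all 52, and 116 lowered beyond it. *Atrx* stayed at -1.24, and the genes called in polyA RNA that also passed in the same direction in rRNA-depleted RNA went from 627 to 708 (681 with gene rows only, 789 with DESeq2). The block took the call from 1 named gene (*Col11a2*) and changed no other named call. Of 203 named genes, thinning took the call from 6, centring from 10 and sg5 with WT alone from 3, and leaving out 1 library from between 1 and 24. DESeq2, other size factors and no filter took none. Depth limits genes near 1 count, as sg5 was sequenced more deeply than WT.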
